A study of Homo sapiens with 12 samples.

Results

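The genes described here are 39 genes of mitosis and of the G2/M transition, taken by symbol from a named list of cyclins, mitotic kinases, spindle, kinetochore and cytokinesis genes. They were looked up among the 58735 Ensembl genes of the count table. All 39 were found, and all 39 passed the low-count filter that left 17468 genes for testing. The list was drawn up from known function, not from the values, but with earlier results of these data known.

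RNA was sequenced from cancer tissue made of GFP-MDA-MB-231 cells, a triple-negative human breast cancer line that carries green fluorescent protein, in all 3 groups. The tissue sat in fibrin gel in the middle well of a perfused plate (AngioPlate), and its RNA was taken on day 5 after the cancer cells were seeded. In monoculture there was no partner tissue. In the hepatic co-culture the partner was HepG2 hepatoma cells with 2% lung fibroblasts, and in the cardiac co-culture it was cardiomyocytes derived from iPSC with 2% cardiac fibroblasts. There were 4 libraries per group, described as biological replicates. The labels do not say from which cultures, so a p-value here reflects only how much these libraries vary. The RNA came from whole, unsorted cancer tissue of 1 cell line. In such bulk RNA, fewer dividing cells and less mitotic RNA per cell cannot be told apart.

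Cells that enter mitosis switch on cyclin B with its kinase CDK1, which drives chromosome condensation and spindle assembly. The spindle checkpoint then holds back the anaphase-promoting complex (APC/C) until every chromosome is attached, after which cyclin B and securin are destroyed and the cell divides. Most of these genes are transcribed late in the cycle, under B-MYB, FOXM1 and the DREAM complex, and so serve as markers of the dividing share of a tumour cell population.

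Library totals ran from 26.2 to 42.4 M counts (M for 1e6): 35.0 to 42.0 M for monoculture, 26.2 to 42.4 M for hepatic and 27.0 to 37.4 M for cardiac libraries. One library stood apart from its group: cardiac replicate 4 lay at -24.9 on the first principal component (28.5% of the variance), where monoculture ran from -51.1 to -22.3 and cardiac replicates 1 to 3 from 6.79 to 16.3. Whether its label is right cannot be decided from the files, so counts of called genes, and the fold changes that a result turns on, are given with and without it. The cancer line's own markers were present in every library, 10 of 10 at 1 CPM (counts per 1e6, TMM-scaled) or more in each group, with summed levels of 3297 to 3862 CPM. Of 14 cardiomyocyte markers 2 reached 1 CPM in each group, and the sums were 15.3 to 19.1 CPM in monoculture, 19.5 to 21.5 in the hepatic and 18.8 to 21.1 in the cardiac libraries. Cardiac replicate 4 held 21 counts of the cardiac myosin gene MYH6 and 8 of the atrial myosin light chain gene MYL7, both at 0 in the other 11 libraries, and 8 of ACTN2 (the sarcomeric alpha-actinin), which had 1 and 2 in cardiac replicates 1 and 3 and 0 elsewhere. TNNT2, TNNI3 and MYH7 of the same list did not stand out there. TNNT2 had 2 counts (4 in monoculture replicate 4), TNNI3 had 2 (7 in hepatic replicate 2) and MYH7 had 0. The markers of this library summed to 20.0 CPM. Of 14 hepatocyte markers 2 reached 1 CPM in each group, with sums of 60.8 to 99.0 CPM in monoculture, 39.8 to 66.1 in hepatic and 94.3 to 132 in cardiac libraries, and ALB had 0 to 14 counts in any library. Of 12 fibroblast markers 5 reached 1 CPM in monoculture, 4 in hepatic and 5 in cardiac libraries, with sums of 12.1 to 17.8, 13.8 to 24.5 and 13.8 to 14.5 CPM. The part of other cells in the results was not tested.

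Many promoters of these genes hold sequence features by which the genes were not picked. The list is of known late cell cycle genes, so a high share of such features is not an independent result. A pair of short elements is known from late cell cycle promoters: the CCAAT box (CCAAT, bound by NF-Y) and the cell cycle homology region (CHR, TTTGAA, bound by the DREAM and B-MYB complexes). Windows from 250 bases before to 50 after the start were taken from RefSeq (GRCh38.p14), which gave 41 windows for 34 of the 39 genes. Those not matched were AURKA, BIRC5, TPX2, TTK and UBE2C. The windows below, from 150 bases before to 30 after the start, are shown because they hold both elements and belong to genes on which later results turn, with CCNB2 as a known late cell cycle promoter. Capitals mark CCAAT and TTTGAA or their reverse complements, ATTGG and TTCAAA, and all 5 genes lie on the plus strand.
CCNB2, chr15:59104996-59105175: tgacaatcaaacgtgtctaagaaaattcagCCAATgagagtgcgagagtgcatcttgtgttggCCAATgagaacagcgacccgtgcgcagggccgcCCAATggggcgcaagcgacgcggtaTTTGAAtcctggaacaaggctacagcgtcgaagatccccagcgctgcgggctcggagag
PLK1, chr16:23678739-23678918: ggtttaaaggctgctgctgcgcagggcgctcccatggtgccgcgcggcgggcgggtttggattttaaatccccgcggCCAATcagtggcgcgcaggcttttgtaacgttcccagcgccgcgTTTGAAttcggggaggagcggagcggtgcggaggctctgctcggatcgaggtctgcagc
CDC20, chr1:43358831-43359010: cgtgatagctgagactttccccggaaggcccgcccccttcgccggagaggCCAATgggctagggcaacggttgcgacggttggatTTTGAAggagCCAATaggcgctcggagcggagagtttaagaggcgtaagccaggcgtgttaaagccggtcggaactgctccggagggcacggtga
CKS2, chr9:89311045-89311224: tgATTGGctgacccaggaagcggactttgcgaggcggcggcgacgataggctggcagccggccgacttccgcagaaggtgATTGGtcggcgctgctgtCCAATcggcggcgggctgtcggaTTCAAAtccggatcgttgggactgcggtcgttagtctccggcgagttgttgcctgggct
ECT2, chr3:172750576-172750755: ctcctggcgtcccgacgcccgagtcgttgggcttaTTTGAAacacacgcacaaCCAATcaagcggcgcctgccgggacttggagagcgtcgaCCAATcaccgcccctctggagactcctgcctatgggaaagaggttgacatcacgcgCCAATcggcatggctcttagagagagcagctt
In CCNB2, PLK1 and, in reverse, CKS2 the CHR letters began 29 bases before the start. In CDC20 a TTTGAA stood at -65, between CCAAT letters at -100 and -55. The ECT2 window is the first of 2 RefSeq starts of that gene, and its TTTGAA at -115 lay upstream of the 3 CCAAT boxes at -97, -58 and -2.

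With both strands searched in the full windows of 300 bases, CCAAT was present in 31 of 41 windows (75.6%), against 34.6% of all 35116 promoter windows. TTTGAA was present in 28 of 41 (68.3%), against 15.2% of all windows. Both elements stood together in 23 windows (56.1%), which belonged to 21 of the 34 genes, against 5.90% of all windows. TTTGGCGC or TTTCGCGC, letters of the E2F site of G1/S genes, were in 3 of 41 windows (7.32%), those of CDK1 and NUSAP1, against 1.15%. Windows of the same gene can overlap, and those of CDK1 hold the same TTTCGCGC. No motif searched contains another of them. A match describes the letters in these windows and is not a measured binding site.

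Across libraries the 39 genes varied together. Their mean level relative to the monoculture mean, on the log2 scale, was 0.11, -0.04, -0.07 and 0.00 in monoculture replicates 1 to 4. In the hepatic co-culture it was -0.72, -0.05, -0.47 and -0.11, and in the cardiac co-culture -0.55, -1.06, -0.47 and 0.12. The co-cultures thus held both libraries at the monoculture level and libraries well under it: cardiac replicate 2 was at 0.480 of the monoculture level and cardiac replicate 4 at 1.08, while hepatic replicates 1 and 2 were at 0.606 and 0.966. Group means were -0.34 ± 0.32 in the hepatic co-culture and -0.49 ± 0.48 in the cardiac one (SD, n = 4), or -0.69 ± 0.32 without cardiac replicate 4 (n = 3). The SD over the 4 monoculture libraries was 0.079.

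**Figure D1:**
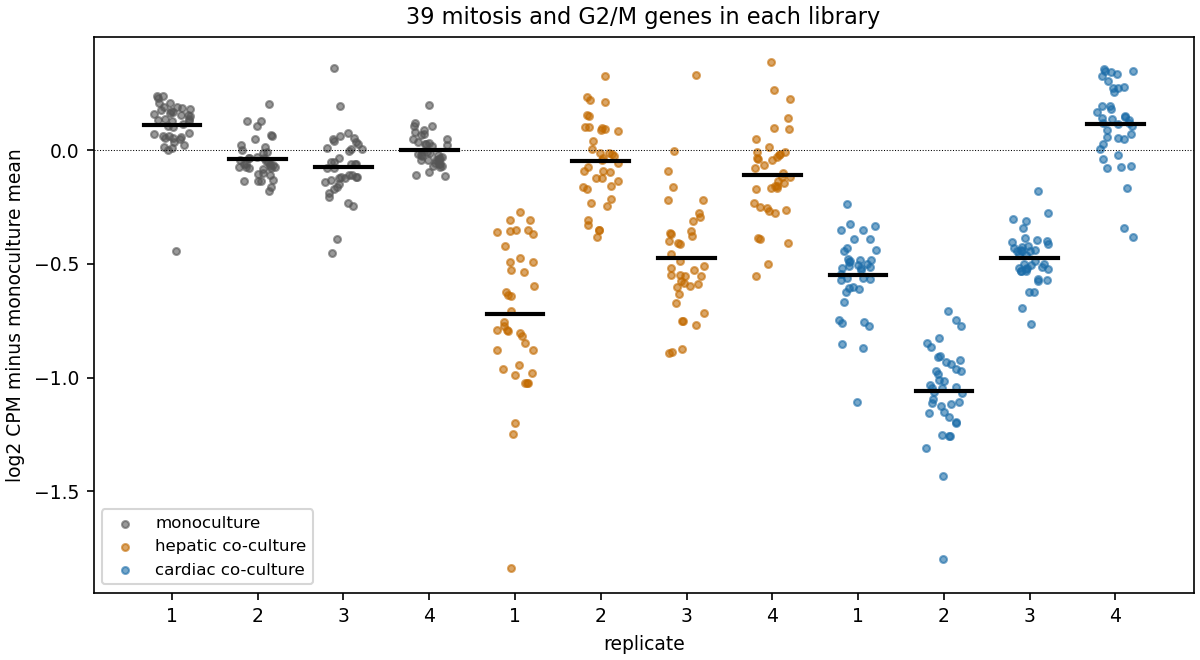
Each point is 1 of the 39 genes in 1 library, as log2 CPM minus the gene's monoculture mean (vertical axis), by replicate within each group (horizontal axis), and the black bars are library means. Cardiac replicates 1 to 3 and hepatic replicates 1 and 3 lie below the monoculture libraries, while cardiac replicate 4 and hepatic replicates 2 and 4 lie close to them.

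In the co-cultures the lowest and the highest library were much the same from gene to gene. In monoculture this was less so: replicates 1 to 4 were lowest in 1, 15, 20 and 3 genes and highest in 28, 1, 3 and 7. Cardiac replicate 2 was the lowest of its group in 39 of 39 genes, and cardiac replicate 4 the highest in 39 of 39. In the hepatic group replicate 1 was the lowest in 30 genes and replicate 3 in the other 9, and replicate 2 was the highest in 30 and replicate 4 in the other 9. Genes below all 4 monoculture libraries numbered 38, 14, 35 and 18 in hepatic replicates 1 to 4, and 38, 39, 37 and 3 in cardiac replicates 1 to 4. Cardiac replicate 4 was above every monoculture library in 17 genes. The share of all tested genes was not counted for single libraries, so these numbers are a description only. In the cardiac group the total counts, 27.8, 27.0, 32.7 and 37.4 M in replicates 1 to 4, followed the same order as the mean level of the genes, and the part of depth in it was not tested. The hepatic totals, 30.0, 42.4, 29.6 and 26.2 M, did not follow that order.

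The spread within the co-cultures was wider for these genes than for most. Their median SD of log2(CPM + 0.1) was 0.13 for monoculture, 0.31 for hepatic and 0.49 for cardiac libraries, beside 0.15, 0.19 and 0.19 over all tested genes. The SD exceeded that of monoculture in 38 of the 39 genes for hepatic and in 39 of 39 for cardiac libraries, beside 60.6% and 60.7% of all tested genes. Since the genes vary together, these counts are a description and not 39 separate observations.

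**Figure D2:**
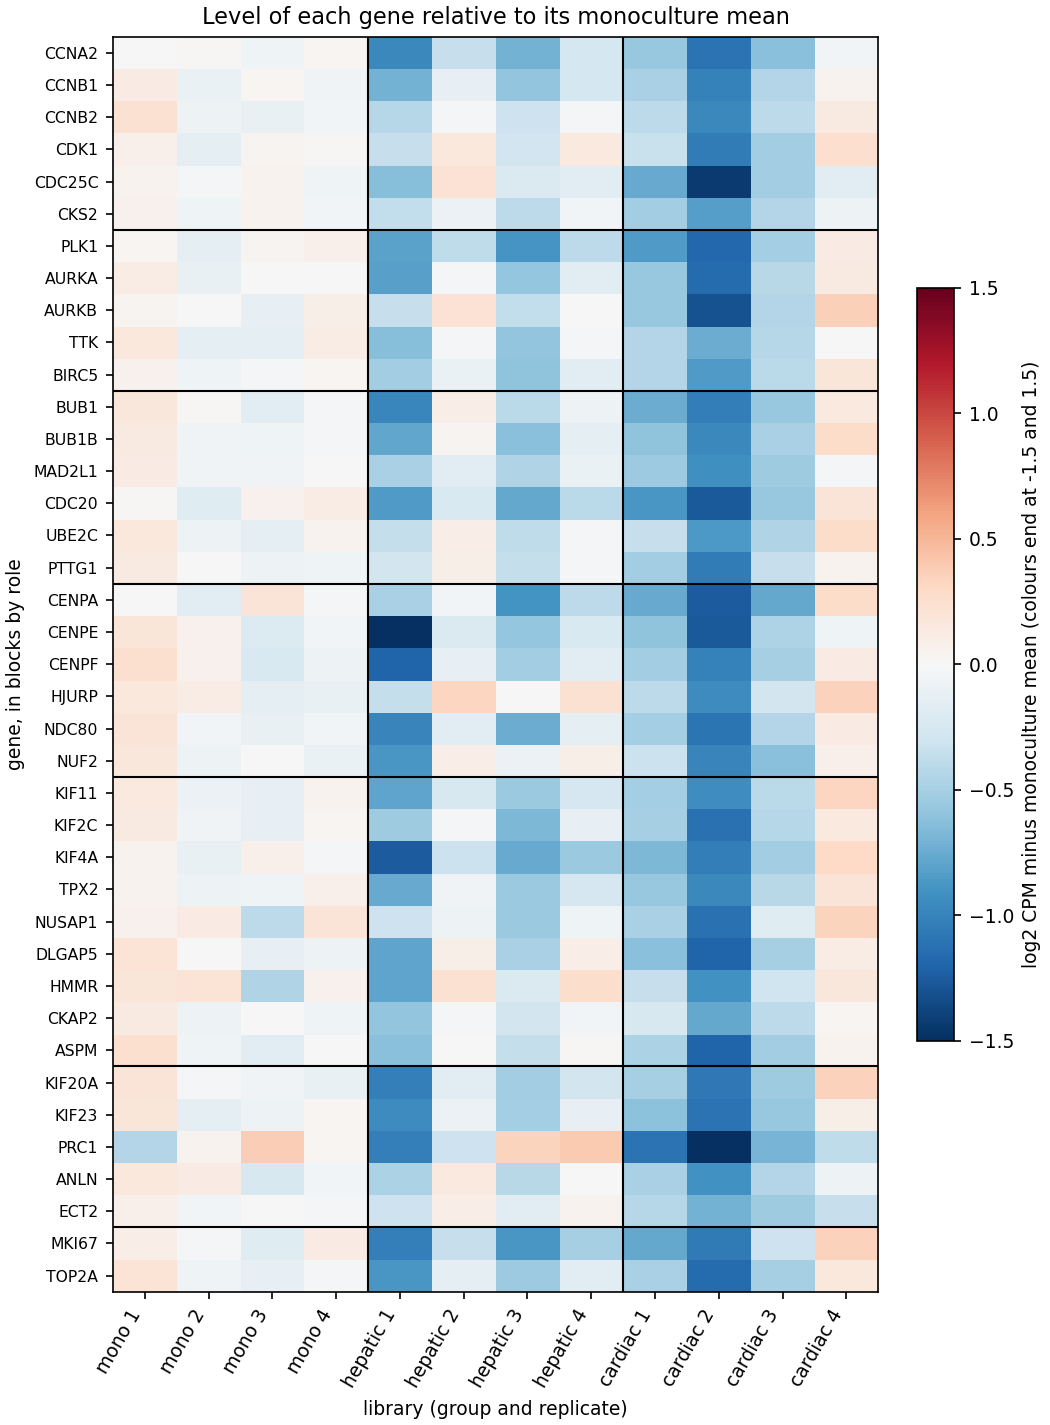
Rows are the 39 genes in blocks by role, columns the 12 libraries, and the colour is log2 CPM minus the monoculture mean (blue lower, red higher). Cardiac replicate 2 is blue in all 39 rows, and cardiac replicate 4 is near white or pale red in most.

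The levels themselves differed widely between genes. Per kilobase of exon, the monoculture mean was highest for CKS2 (145 CPM per kb), UBE2C (88.2), TPX2 (74.3) and CCNB1 (69.7), and among genes with little overlap lowest for CDC25C (3.34). PRC1 (0.146 CPM per kb) and NUSAP1 (1.87) were lower, but 58.4% and 62.2% of their exon length overlaps other annotated genes and the counting of shared reads is not given in the sources used here, so both are uncertain. PRC1 rested on 6 to 44 reads per library, while 37 of the 39 genes had at least 100 reads in every library.

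Hepatic co-culture against monoculture asked how these genes stood in cancer tissue grown beside liver-like tissue. Log2 fold changes were negative for 38 of 39 genes (48.4% of all tested genes were negative), with a median of -0.30 beside 0.01 over all tested genes and a range from -0.68 (KIF4A) to 0.07 (HJURP). None of the 39 passed an adjusted p of 0.05 (edgeR's quasi-likelihood test, Benjamini-Hochberg over all tested genes), where 28% of all tested genes did, 13.6% of them lower and 14.4% higher. At an unadjusted p under 0.05, 4 were lower (19% of all genes were): CCNA2, PLK1, KIF4A and MKI67. DESeq2 called 1, CCNA2 (15.4% of all genes were called lower). The fit draws its estimate of the spread from all 12 libraries, and the count rested on cardiac libraries that are not in the comparison. Without cardiac replicate 4, 9 genes fell (15.6% of all genes did, and 15.5% rose): BIRC5, CCNA2, CDC20, CENPA, KIF11, KIF4A, MAD2L1, MKI67 and PLK1. Without cardiac replicate 2, 2 fell (13.7% of all genes did), and with only the monoculture and hepatic libraries fitted, 12 fell (14.7% of all genes). In 13 genes all hepatic libraries lay below all monoculture libraries, where 15.4% of all tested genes did so.

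Cardiac co-culture against monoculture put the same question beside heart-like tissue. With all 4 cardiac libraries, 2 genes fell, ECT2 and CKS2, where 8.26% of all tested genes were called, 3.33% lower and 4.93% higher. Log2 fold changes were negative for 39 of 39 genes (49.1% of all tested genes were negative), with a median of -0.42 beside 0.01 over all tested genes and a range from -0.91 (PRC1) to -0.24 (HJURP). At an unadjusted p under 0.05, 9 were lower (11.9% of all genes were), and DESeq2 called 6 (5.79% of all genes were called lower). Without cardiac replicate 4, 28 of 39 genes fell, where 9.16% of all genes did and 9.9% rose, and the median was -0.66 beside 0.01. Leaving out any other library left 1 or 2 genes called. Groups did not overlap in 3 genes with all libraries (CDC25C, CKS2 and ECT2, 7.47% of all tested genes) and in 37 without cardiac replicate 4 (16.2% of all tested genes), the exceptions being NUSAP1 and HMMR.

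By role, the calls without cardiac replicate 4 covered 6 of 6 cyclin and CDK1 genes, 6 of 6 spindle checkpoint and APC/C genes, 4 of 5 kinase and passenger genes, 4 of 5 cytokinesis genes, 6 of 9 spindle genes, 1 of 6 kinetochore genes and 1 of 2 chromosome markers. The medians of these roles lay close together, between -0.62 and -0.69. The 9 genes called in the hepatic comparison were all among the 28, but both comparisons use the same monoculture libraries.

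**Figure D3:**
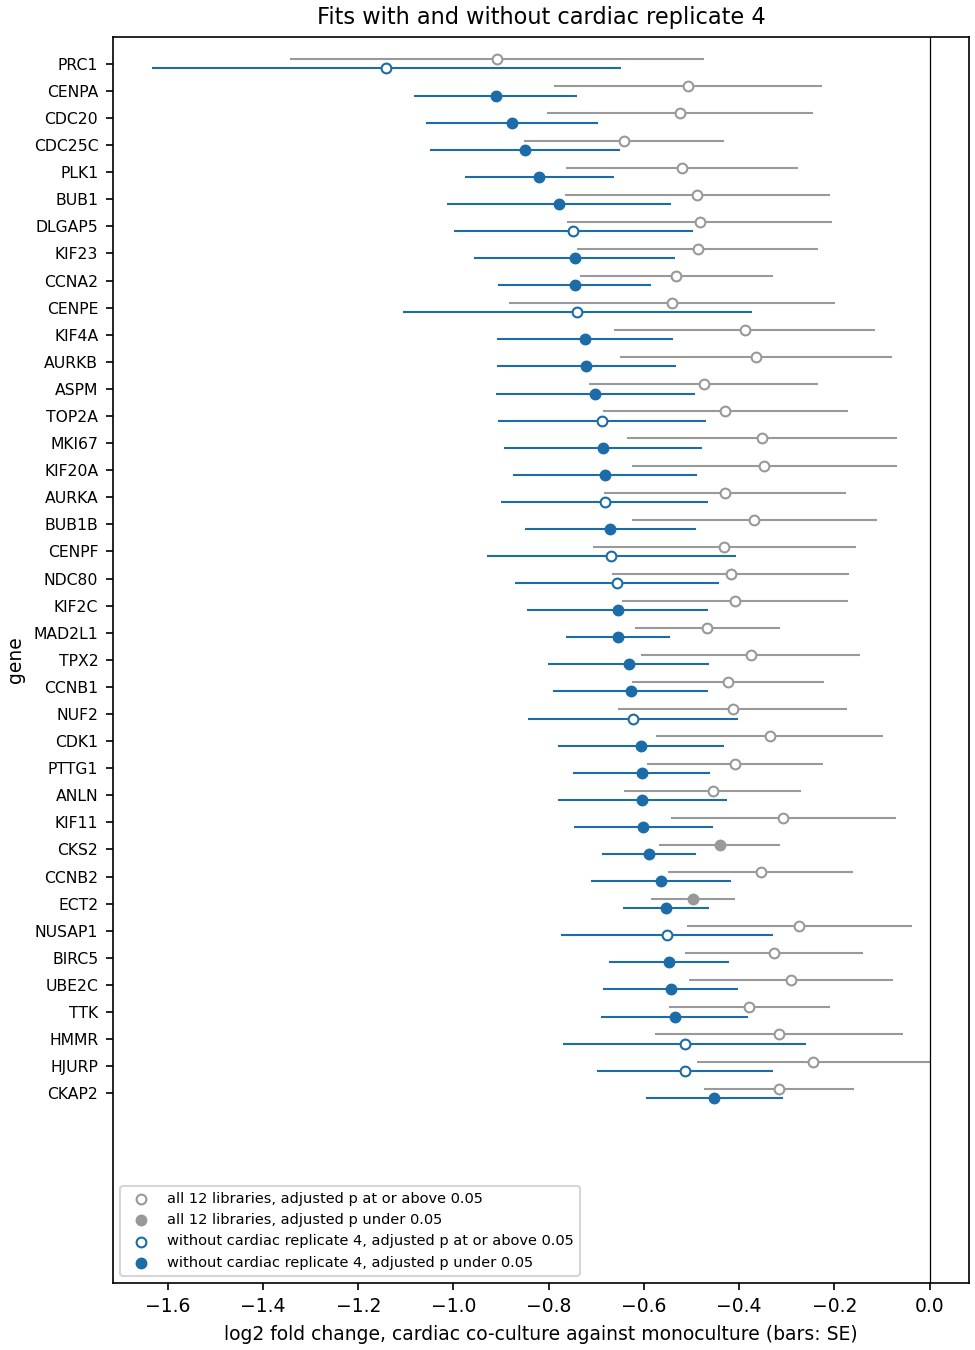
Log2 fold change of each gene for cardiac co-culture against monoculture, with bars of 1 SE, from all 12 libraries (grey) and without cardiac replicate 4 (blue). Filled points have an adjusted p under 0.05: 2 of 39 in grey and 28 of 39 in blue.

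Among the cyclins and the CDK1 switch, cyclin A2 (CCNA2), which partners CDK2 and then CDK1, stood at 66.1, 66.7, 63.0 and 66.8 CPM in monoculture replicates 1 to 4. Its hepatic values were 33.7, 51.4, 40.0 and 54.6 CPM and its cardiac values 44.4, 30.5, 42.5 and 63.8 CPM. The 4 hepatic libraries lay below all of monoculture, as did cardiac replicates 1 to 3, while cardiac replicate 4 was within the monoculture range. Log2 fold changes were -0.55 ± 0.20 (SE, adjusted p = 0.0687) in the hepatic and -0.53 ± 0.20 (adjusted p = 0.129) in the cardiac co-culture. Without cardiac replicate 4 both passed, with -0.55 ± 0.15 (adjusted p = 0.012) and -0.75 ± 0.16 (adjusted p = 0.00698). Cyclin B1 (CCNB1), the activating partner of CDK1 in mitosis, had 195, 166, 181 and 171 CPM in monoculture. Hepatic libraries held 109, 164, 118 and 148 and cardiac libraries 127, 88.0, 131 and 185 CPM. The hepatic group did not overlap monoculture, and in the cardiac group replicate 4 alone did. The log2 fold change was -0.40 ± 0.20 (adjusted p = 0.169) in the hepatic and -0.42 ± 0.20 (adjusted p = 0.22) in the cardiac co-culture, and -0.63 ± 0.16 (adjusted p = 0.0205) without cardiac replicate 4.

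CDK1 itself, the mitotic kinase, had 105, 90.9, 102 and 101 CPM in monoculture, 78.2, 111, 81.4 and 110.1 in the hepatic and 79.1, 48.2, 69.3 and 119 in the cardiac co-culture. Hepatic replicates 2 and 4 and cardiac replicate 4 exceeded every monoculture library, and the other co-culture libraries lay below all of them. Its hepatic log2 fold change was -0.07 ± 0.24 (adjusted p = 0.865) and its cardiac one -0.34 ± 0.24 (adjusted p = 0.421), or -0.61 ± 0.17 (adjusted p = 0.0343) without cardiac replicate 4. CDC25C, a phosphatase that activates CDK1, was the lowest of the cyclin and CDK1 genes per length. Its values were 11.5, 10.9, 11.5 and 10.6 CPM in monoculture, 7.13, 13.0, 9.56 and 9.99 in the hepatic and 6.60, 4.12, 7.75 and 9.92 in the cardiac co-culture, where no library reached the monoculture range. The cardiac log2 fold change of -0.64 ± 0.21 missed the threshold (adjusted p = 0.0643), and without cardiac replicate 4 it was -0.85 ± 0.20 (adjusted p = 0.00654).

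CKS2 (chr9:89311198-89316703, GRCh38, plus strand), a small subunit that binds CDK1, fell in the cardiac co-culture. It held 92.8, 84.7, 92.0 and 86.4 CPM in monoculture, 68.9, 83.5, 67.5 and 86.5 in the hepatic and 61.7, 50.2, 65.4 and 84.5 in the cardiac libraries. All cardiac libraries lay below monoculture, replicate 4 by the least, and 3 of the 4 hepatic libraries did. The means were 89.0 ± 4.05, 76.6 ± 9.80 and 65.4 ± 14.3 CPM (SD, n = 4 each), and the cardiac log2 fold change was -0.44 ± 0.13 (adjusted p = 0.0457). That call passed in 2 of 12 fits that each left out 1 library, with adjusted p from 0.000782 (without cardiac replicate 4) to 0.126. The hepatic log2 fold change was -0.22 ± 0.13 (adjusted p = 0.223).

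Of the mitotic kinases, PLK1, which acts on centrosomes, kinetochores and the cleavage furrow, had 70.0, 62.7, 70.7 and 72.4 CPM in monoculture. It had 39.4, 52.9, 37.2 and 52.6 CPM in the hepatic and 38.2, 30.5, 48.3 and 74.7 in the cardiac co-culture. Every hepatic library and cardiac replicates 1 to 3 were under the monoculture range, and cardiac replicate 4 was above it. The hepatic log2 fold change was -0.60 ± 0.24 (adjusted p = 0.0972), and -0.60 ± 0.14 (adjusted p = 0.00583) when cardiac replicate 4 was left out of the fit. The cardiac one was -0.52 ± 0.24 (adjusted p = 0.214) with all libraries and -0.82 ± 0.16 (adjusted p = 0.00352) without that library. AURKA, the centrosomal Aurora kinase, had 129.9, 112, 122 and 119.9 CPM in monoculture, 68.6, 119, 81.0 and 108 in hepatic and 81.3, 54.4, 90.2 and 133 in cardiac libraries. Hepatic replicate 2 was inside the monoculture range and cardiac replicate 4 above it. Neither comparison passed the threshold, with log2 fold changes of -0.36 ± 0.25 (adjusted p = 0.331) and -0.43 ± 0.25 (adjusted p = 0.324), and AURKA also missed it without cardiac replicate 4 (-0.68 ± 0.22, adjusted p = 0.0581).

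BIRC5 (survivin), the subunit that brings Aurora B to centromeres and the midbody, had 87.0, 80.0, 81.6 and 85.5 CPM in monoculture, 58.0, 78.2, 55.0 and 74.5 in the hepatic and 61.6, 46.4, 63.3 and 94.6 in the cardiac co-culture. The hepatic libraries and cardiac replicates 1 to 3 lay below all of monoculture, and cardiac replicate 4 lay above. Log2 fold changes were -0.33 ± 0.19 (adjusted p = 0.221) and -0.33 ± 0.19 (adjusted p = 0.303), and without cardiac replicate 4 BIRC5 fell in both, with -0.33 ± 0.12 (adjusted p = 0.0379) and -0.55 ± 0.13 (adjusted p = 0.00784). AURKB, the passenger kinase, and TTK, the checkpoint kinase MPS1, gave log2 fold changes of -0.36 ± 0.29 and -0.38 ± 0.17 in the cardiac co-culture, with adjusted p of 0.471 and 0.175. Without cardiac replicate 4 both fell there (adjusted p = 0.0176 and 0.0231).

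Among the spindle checkpoint and APC/C genes, CDC20, the activator that the checkpoint restrains, stood at 106, 92.8, 109.6 and 113 CPM in monoculture. It stood at 58.4, 89.4, 61.7 and 79.2 CPM in the hepatic and at 57.5, 43.9, 70.6 and 120.4 in the cardiac co-culture. Hepatic libraries did not overlap monoculture, cardiac replicates 1 to 3 lay below it and cardiac replicate 4 exceeded it. The log2 fold changes were -0.54 ± 0.28 (adjusted p = 0.182) and -0.52 ± 0.28 (adjusted p = 0.273), and without cardiac replicate 4 they were -0.55 ± 0.16 (adjusted p = 0.0263) and -0.88 ± 0.18 (adjusted p = 0.00778). BUB1, a checkpoint kinase at the kinetochore, had 114, 102, 90.5 and 99.9 CPM in monoculture, 51.3, 108, 76.3 and 95.8 in hepatic and 60.3, 49.2, 68.1 and 112 in cardiac libraries. Hepatic replicates 2 and 4 and cardiac replicate 4 were inside the monoculture range. Its cardiac log2 fold change was -0.49 ± 0.28 (adjusted p = 0.309), or -0.78 ± 0.23 (adjusted p = 0.0479) without cardiac replicate 4, and its hepatic one -0.29 ± 0.28 (adjusted p = 0.48).

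UBE2C, the ubiquitin-conjugating enzyme of the APC/C, had 127, 107, 103 and 117 CPM in monoculture, 88.4, 121, 87.2 and 111 in the hepatic and 88.7, 62.1, 82.5 and 137 in the cardiac co-culture. Hepatic replicates 2 and 4 were inside the monoculture range and replicates 1 and 3 below it, and its cardiac values lay below it except in replicate 4, which was above. The log2 fold changes were -0.15 ± 0.21 (adjusted p = 0.645) and -0.29 ± 0.21 (adjusted p = 0.438), the latter -0.54 ± 0.14 (adjusted p = 0.0176) without cardiac replicate 4. MAD2L1, which carries the checkpoint signal to CDC20, had the smallest adjusted p of the checkpoint and APC/C genes in the cardiac comparison (0.0719, log2 fold change -0.47 ± 0.15). Without cardiac replicate 4 it fell by 0.66 ± 0.11 (adjusted p = 0.000769). BUB1B (the checkpoint protein BUBR1) and PTTG1 (securin) fell in the cardiac co-culture in the fit without cardiac replicate 4 (adjusted p = 0.0211 and 0.0101, against 0.413 and 0.192 with it).

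Of the 6 kinetochore genes, CENPF, a large kinetochore protein of G2 and mitosis, had 259, 229, 187 and 209 CPM in monoculture, 95.6, 201, 152 and 195 in the hepatic and 153, 109, 155 and 238 in the cardiac co-culture. Hepatic replicates 2 and 4 and cardiac replicate 4 overlapped monoculture, which itself ran from 187 to 259 CPM. Its log2 fold changes were -0.46 ± 0.28 (adjusted p = 0.257) and -0.43 ± 0.28 (adjusted p = 0.369), or -0.67 ± 0.26 (adjusted p = 0.115) without cardiac replicate 4. CENPE, a kinesin that attaches kinetochores to microtubules, had 91.2, 84.4, 70.0 and 78.5 CPM in monoculture and 22.6, 69.5, 53.7 and 68.7 in the hepatic co-culture. Hepatic replicate 1, at -1.84 on the log2 scale, was the lowest value of any of the 39 genes in a hepatic library, and all 4 hepatic libraries lay below monoculture. The hepatic log2 fold change of CENPE missed the threshold (-0.59 ± 0.34, adjusted p = 0.236), also without cardiac replicate 4 (-0.60 ± 0.33, adjusted p = 0.223). Cardiac values were 53.0, 33.7, 58.6 and 76.9 CPM, with replicate 4 inside the monoculture range, and the log2 fold change was -0.54 ± 0.34 (adjusted p = 0.362), or -0.74 ± 0.37 (adjusted p = 0.213) without that library. CENPA, the histone variant that marks centromeres, was the 1 kinetochore gene that passed without cardiac replicate 4, with -0.43 ± 0.15 (adjusted p = 0.0398) in the hepatic and -0.91 ± 0.17 (adjusted p = 0.00166) in the cardiac co-culture. HJURP, the chaperone that loads CENPA, had 77.7, 75.2, 62.9 and 64.4 CPM in monoculture and 54.4, 87.5, 69.6 and 81.5 in the hepatic co-culture, with hepatic replicates 2 and 4 above all monoculture libraries and a log2 fold change of 0.07 ± 0.24 (adjusted p = 0.873).

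Of the spindle motors, KIF4A, a chromokinesin that shortens the overlap of midzone microtubules, had 67.8, 60.8, 69.2 and 64.9 CPM in monoculture, 27.6, 52.3, 38.9 and 44.7 in the hepatic and 41.3, 32.1, 45.8 and 80.9 in the cardiac co-culture. The hepatic libraries were all below monoculture, cardiac replicates 1 to 3 were too, and cardiac replicate 4 was above. The log2 fold change was -0.68 ± 0.28 (adjusted p = 0.0953) in the hepatic co-culture, the lowest of the 39, and -0.69 ± 0.17 (adjusted p = 0.00942) without cardiac replicate 4. In the cardiac co-culture it was -0.39 ± 0.27 (adjusted p = 0.416) and -0.72 ± 0.18 (adjusted p = 0.0188) in turn. KIF11, the motor that pushes spindle poles apart, gave -0.45 ± 0.13 (adjusted p = 0.0201) in the hepatic and -0.60 ± 0.15 (adjusted p = 0.0122) in the cardiac co-culture without that library. KIF2C (a microtubule depolymerase), TPX2 (an AURKA activator), CKAP2 (a spindle microtubule protein) and ASPM (a spindle pole protein) fell in the cardiac comparison without cardiac replicate 4 and missed the threshold with it, with adjusted p in the former from 0.0255 to 0.0449. DLGAP5, HMMR and NUSAP1, which bind spindle microtubules, passed in neither co-culture against monoculture, with or without cardiac replicate 4, with cardiac adjusted p of 0.0713, 0.194 and 0.0901 without that library.

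Cytokinesis held ECT2, the gene called in both comparisons of the cardiac co-culture. ECT2 (chr3:172750682-172821474, GRCh38, plus strand), the exchange factor that activates RhoA to build the cleavage furrow, had 248, 229, 237 and 231 CPM in monoculture, 191, 252, 211 and 245 in the hepatic and 175, 145, 163 and 186 in the cardiac co-culture. Every cardiac library, replicate 4 included, lay below every monoculture and every hepatic library, while the hepatic libraries lay on both sides of the monoculture range. The means were 236 ± 8.53, 225 ± 28.8 and 167 ± 17.8 CPM (SD, n = 4 each). ECT2 fell by 0.50 ± 0.09 on the log2 scale in the cardiac co-culture (adjusted p = 0.00575), and its hepatic log2 fold change was -0.07 ± 0.09 (adjusted p = 0.582). The call passed in 12 of 12 fits that each left out 1 library, with adjusted p from 0.000642 to 0.0288.

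Of the other cytokinesis genes, KIF20A, a motor that carries PLK1 to the midzone, had 62.9, 54.0, 53.2 and 51.1 CPM in monoculture, 27.1, 48.9, 38.5 and 45.6 in the hepatic and 38.9, 26.3, 38.1 and 70.1 in the cardiac co-culture. Hepatic libraries did not overlap monoculture, and cardiac replicate 4 exceeded it. Its log2 fold changes were -0.46 ± 0.28 (adjusted p = 0.253) and -0.35 ± 0.28 (adjusted p = 0.483), the latter -0.68 ± 0.19 (adjusted p = 0.0305) without cardiac replicate 4. KIF23, the motor of centralspindlin, and ANLN (anillin), the scaffold of the contractile ring, also fell in the cardiac co-culture without that library (adjusted p = 0.0356 and 0.0382) and not with it (0.261 and 0.152). PRC1, which bundles midzone microtubules, had 0.581, 0.817, 1.02 and 0.805 CPM in monoculture, 0.388, 0.638, 0.993 and 1.03 in the hepatic and 0.367, 0.227, 0.488 and 0.605 in the cardiac co-culture. Its cardiac log2 fold change of -0.91 ± 0.43 (adjusted p = 0.194) was the lowest of the 39 but rested on few reads, and without cardiac replicate 4 it was -1.14 ± 0.49 (adjusted p = 0.115).

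The chromosome proteins used as proliferation markers had the same lowest and highest cardiac library as the other genes. MKI67 (Ki-67), which coats mitotic chromosomes, had 316, 287, 258 and 319 CPM in monoculture, 145, 231, 161 and 208 in the hepatic and 172, 141, 237 and 374 in the cardiac co-culture. The hepatic libraries all lay below monoculture, cardiac replicates 1 to 3 did too, and cardiac replicate 4 was the highest of the 12 libraries. The hepatic log2 fold change was -0.66 ± 0.29 (adjusted p = 0.116), and -0.67 ± 0.19 (adjusted p = 0.025) without cardiac replicate 4. The cardiac one was -0.35 ± 0.28 (adjusted p = 0.486) and -0.69 ± 0.21 (adjusted p = 0.048) in turn. TOP2A, the topoisomerase that untangles sister chromatids, had 439, 364, 350.3 and 375 CPM in monoculture, 207, 346, 260.4 and 341 in hepatic and 272, 171, 269 and 423 in cardiac libraries. Its hepatic libraries did not overlap monoculture, yet it missed the threshold: the log2 fold changes were -0.40 ± 0.26 (adjusted p = 0.28) and -0.43 ± 0.26 (adjusted p = 0.332), and -0.69 ± 0.22 (adjusted p = 0.0585) without cardiac replicate 4.

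**Figure D4:**
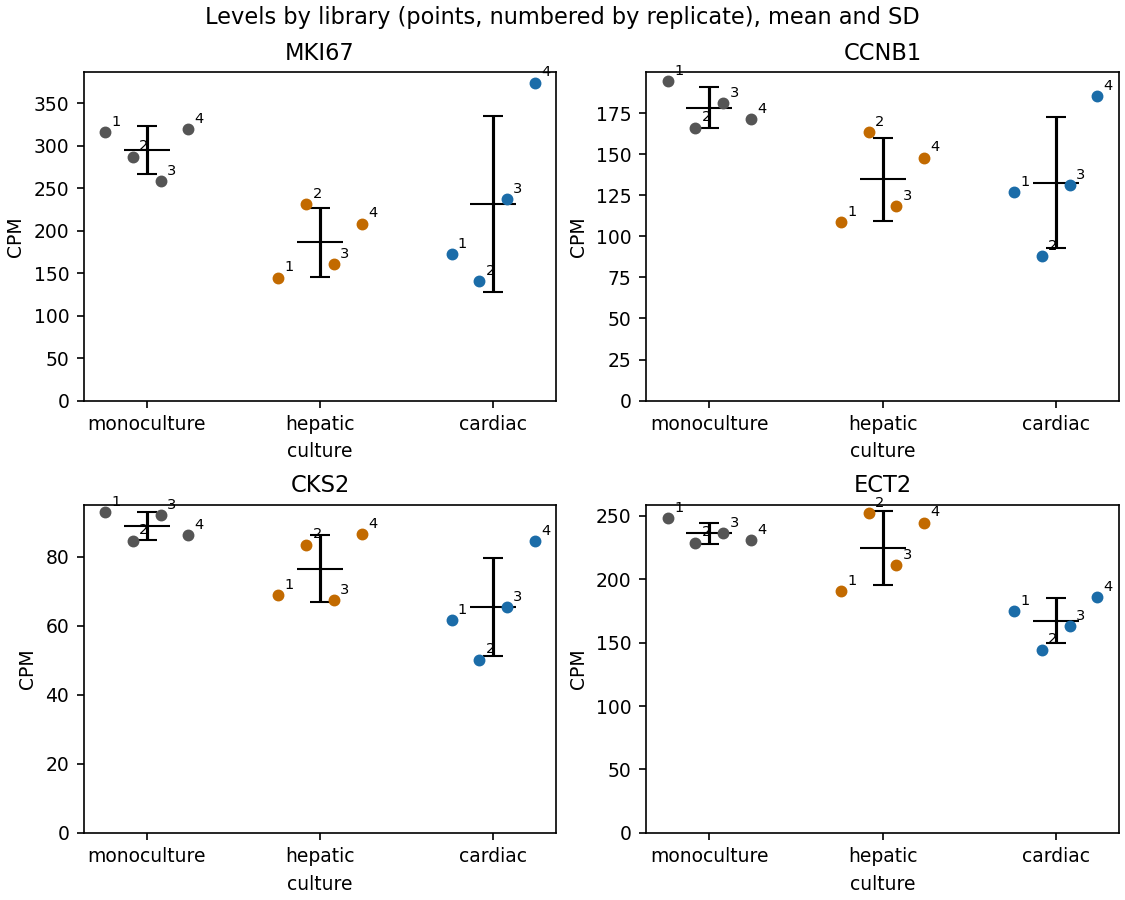
CPM of MKI67, CCNB1, CKS2 and ECT2 (vertical axes from 0) in each library, numbered by replicate, with the group mean and SD (n = 4). Cardiac replicate 4 lies above the monoculture values for MKI67, among them for CCNB1, just below them for CKS2 and further below them for ECT2.

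Cardiac against hepatic co-culture compared the partners directly. ECT2 fell by 0.43 ± 0.09 on the log2 scale (adjusted p = 0.0059), and was the 1 gene of 39 that passed, where 6.18% of all tested genes were called, 2.91% lower and 3.27% higher. It passed in 12 of 12 fits that each left out 1 library (adjusted p from 0.000736 to 0.0288). At an unadjusted p under 0.05, 2 were lower (10.2% of all genes were), and DESeq2 called 1 (4.22% of all genes were called lower). The cardiac and hepatic groups did not overlap in 1 gene, ECT2 (5.92% of all tested genes), and without cardiac replicate 4 in 4: AURKB, CKS2, ECT2 and MAD2L1 (7.93% of all tested genes). The median over the 39 was -0.09 beside 0.00 over all tested genes, with 27 of 39 negative (50.6% of all tested genes were). CDC25C had the next smallest p, at -0.48 ± 0.21 (adjusted p = 0.205), while MKI67 gave 0.31 ± 0.28 (adjusted p = 0.602) and PRC1 -0.82 ± 0.44 (adjusted p = 0.304). When cardiac replicate 4 was left out these were -0.68 ± 0.20 (adjusted p = 0.0576), -0.02 ± 0.21 (adjusted p = 0.982) and -1.05 ± 0.50 (adjusted p = 0.265). In the fit without that library all 39 were negative, with a median of -0.33, and 2 fell (2.18% of all genes were called lower and 2.61% higher): ECT2, by 0.48 ± 0.09 (adjusted p = 0.00293), and CKS2, by 0.37 ± 0.10 (adjusted p = 0.0378). No other member separated the co-cultures in these fits, and a p above the threshold does not show that the levels were alike.

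The factors that drive or restrain late cell cycle transcription were read from a list of 23 regulators. In the hepatic co-culture 9 of 23 fell and 2 rose, where 13.6% of all tested genes fell and 14.4% rose, and 13 fell and 2 rose without cardiac replicate 4 (15.6% and 15.5% of all genes). In the cardiac co-culture 2 fell and 2 rose (3.33% and 4.93% of all genes), or 8 and 2 without that library (9.16% and 9.9%). MYBL2 (B-MYB), a partner of the complex that binds CHR elements, had 71.9, 65.2, 67.7 and 71.9 CPM in monoculture, 36.4, 38.7, 30.2 and 49.0 in the hepatic and 51.1, 36.0, 62.7 and 95.2 in the cardiac co-culture. It fell by 0.84 ± 0.26 in the hepatic co-culture (adjusted p = 0.0359), where no library reached monoculture, and gave -0.17 ± 0.26 (adjusted p = 0.732) in the cardiac one, or -0.47 ± 0.18 (adjusted p = 0.0934) without cardiac replicate 4. FOXM1, the forkhead activator of G2/M genes, had 95.8, 79.0, 102 and 106 CPM in monoculture, 49.4, 66.9, 45.9 and 65.8 in hepatic and 48.2, 36.6, 65.5 and 103 in cardiac libraries. Its log2 fold changes of -0.75 ± 0.29 (adjusted p = 0.0838) and -0.59 ± 0.29 (adjusted p = 0.232) missed the threshold, and both passed without cardiac replicate 4 (-0.75 ± 0.19 and -0.93 ± 0.21, adjusted p = 0.0139 and 0.0134). E2F1, an activator of S phase genes, gave -0.62 ± 0.27 (adjusted p = 0.112) and -0.62 ± 0.27 (adjusted p = 0.181) and passed in both without that library (-0.63 ± 0.12 and -0.99 ± 0.13, adjusted p = 0.000935 and 0.000288).

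Among the regulators, CDKN1A and E2F7 differed between the co-cultures. CDKN1A, the CDK inhibitor p21, had 124, 121, 126 and 106 CPM in monoculture, 129.8, 105, 113 and 109.7 in the hepatic and 165, 152, 149.9 and 129 in the cardiac co-culture. Every cardiac library exceeded every monoculture library, and replicate 4 was the lowest of the cardiac ones. CDKN1A rose by 0.32 ± 0.08 in the cardiac co-culture against monoculture (adjusted p = 0.0261) and by 0.38 ± 0.08 against the hepatic one (adjusted p = 0.00878), with a hepatic value of -0.06 ± 0.08 (adjusted p = 0.636). Leaving out cardiac replicate 4 gave 0.38 ± 0.08 (adjusted p = 0.0024) and 0.45 ± 0.08 (adjusted p = 0.00122). E2F7, a repressor of E2F targets, rose by 0.66 ± 0.07 in the hepatic co-culture (adjusted p = 4.92e-06), from 58.0, 54.5, 54.3 and 53.2 to 86.7, 85.1, 96.5 and 78.8 CPM, and stood at 50.1, 53.0, 55.5 and 55.5 CPM in the cardiac one, with -0.70 ± 0.07 against the hepatic level (adjusted p = 4.98e-06), or -0.71 ± 0.08 (adjusted p = 7.65e-06) without cardiac replicate 4. RBL1 (p107), a pocket protein of the repressive complexes, fell by 0.64 ± 0.10 in the hepatic co-culture (adjusted p = 0.000166). Its cardiac log2 fold change was -0.31 ± 0.10 (adjusted p = 0.059), and -0.41 ± 0.09 (adjusted p = 0.00587) without cardiac replicate 4. E2F3, an activator E2F, fell in both co-cultures (-0.26 ± 0.07 and -0.26 ± 0.07, adjusted p = 0.00987 and 0.0311), the cardiac value being -0.31 ± 0.07 (adjusted p = 0.00501) without cardiac replicate 4.

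Of the machinery around the 39 genes, fewer members passed with all libraries than without cardiac replicate 4. The same shares of all tested genes apply to each of these lists: with all libraries 13.6% fell and 14.4% rose in the hepatic comparison and 3.33% fell and 4.93% rose in the cardiac one, and without that library 15.6% and 15.5%, and 9.16% and 9.9%. Of 12 genes of CDK1 phosphorylation and mitotic entry, 2 fell in the hepatic co-culture and 0 in the cardiac one, against 6 in each without that library. The 2 were CDC25A, a phosphatase that activates CDKs (-0.94 ± 0.24, adjusted p = 0.012), and ENSA, an inhibitor of the phosphatase PP2A (-0.25 ± 0.09, adjusted p = 0.0378). Their cardiac values were -0.56 ± 0.24 (adjusted p = 0.16) and -0.10 ± 0.09 (adjusted p = 0.483). Without cardiac replicate 4 these were -0.85 ± 0.18 (adjusted p = 0.0041) and -0.15 ± 0.09 (adjusted p = 0.276). WEE1, the inhibitory CDK1 kinase, gave 0.11 ± 0.08 and -0.13 ± 0.08 (adjusted p = 0.321 and 0.332), the latter -0.14 ± 0.09 (adjusted p = 0.302) without that library. Of 15 APC/C genes, ANAPC7 fell in both co-cultures (-0.52 ± 0.11 and -0.45 ± 0.11, adjusted p = 0.00172 and 0.0197), ANAPC13 fell in the cardiac one (-0.26 ± 0.07, adjusted p = 0.0261), and CDC27 rose in the hepatic one (0.28 ± 0.07, adjusted p = 0.00635). Without cardiac replicate 4, 5 of the 15 fell and 1 rose in the hepatic comparison and 4 fell in the cardiac one, where ANAPC7 gave -0.56 ± 0.10 (adjusted p = 0.00129) and ANAPC13 -0.29 ± 0.07 (adjusted p = 0.00931). Condensin and cohesin genes gave 3 of 16 lower in the hepatic co-culture, or 8 without cardiac replicate 4, among them SMC1A, a cohesin ATPase (-0.58 ± 0.10, adjusted p = 0.000726), and NCAPH2 of condensin II (-0.49 ± 0.13, adjusted p = 0.012). In the cardiac co-culture 0 of 16 were called, and 10 fell without cardiac replicate 4. SMC1A and NCAPH2 gave -0.27 ± 0.10 and -0.37 ± 0.13 there (adjusted p = 0.119 and 0.0923). Without that library they gave -0.41 ± 0.07 and -0.49 ± 0.13 (adjusted p = 0.00108 and 0.0127).

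Of 21 other kinetochore and checkpoint genes, 3 fell and 1 rose in the hepatic co-culture (8 and 2 without cardiac replicate 4), and CENPM and SPC25, both of the kinetochore, had the smallest p (-0.79 ± 0.23 and -0.53 ± 0.18, adjusted p = 0.0182 and 0.0356). None of the 21 passed in the cardiac co-culture, where 13 fell without cardiac replicate 4. CENPM and SPC25 gave -0.71 ± 0.23 and -0.57 ± 0.18 there (adjusted p = 0.0659 and 0.059). Without that library they gave -1.01 ± 0.19 and -0.75 ± 0.18 (adjusted p = 0.00172 and 0.00634). Of 25 other spindle and cytokinesis genes, 1 fell in the hepatic co-culture, the tubulin gene TUBB4B (-0.38 ± 0.13, adjusted p = 0.038), and 0 in the cardiac one, against 9 and 22 without cardiac replicate 4. The medians of this list were -0.35 for hepatic and -0.37 for cardiac libraries, or -0.66 in the latter without that library. TUBB4B gave -0.38 ± 0.13 (adjusted p = 0.0803) in the cardiac co-culture, or -0.54 ± 0.09 (adjusted p = 0.000957) without cardiac replicate 4. These 4 lists with no cardiac call in edgeR (mitotic entry, condensin and cohesin, kinetochore, spindle) had 2 of 12, 7 of 16, 9 of 21 and 8 of 25 genes lower at an unadjusted p under 0.05, where 11.9% of all tested genes were, and DESeq2 called 2, 1, 6 and 2 of them lower, where it called 5.79% of all.

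Genes of the earlier G1/S and replication phase were set beside the mitotic genes in every library. Their list shares CDC25A with that of mitotic entry, and the gene counts in both. Of 23 such genes, 7 fell in the hepatic co-culture and 0 in the cardiac one, and 20 fell in each without cardiac replicate 4, where 13.6% and 3.33% of all tested genes fell with all libraries and 15.6% and 9.16% without it. In the cardiac co-culture with all libraries 14 of the 23 were lower at an unadjusted p under 0.05 (11.9% of all tested genes were), where edgeR called 0 and DESeq2 called 3 (5.79% of all). Their mean level against monoculture was -0.78, -0.36, -0.81 and -0.38 in hepatic replicates 1 to 4 and -0.71, -0.95, -0.51 and 0.09 in cardiac replicates 1 to 4. In hepatic replicates 2 and 4, where the mitotic genes stood at -0.05 and -0.11, the G1/S genes were thus below every monoculture library, the lowest of which was at -0.14. In cardiac replicate 4 both groups of genes were at the level of monoculture replicate 1.

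**Figure D5:**
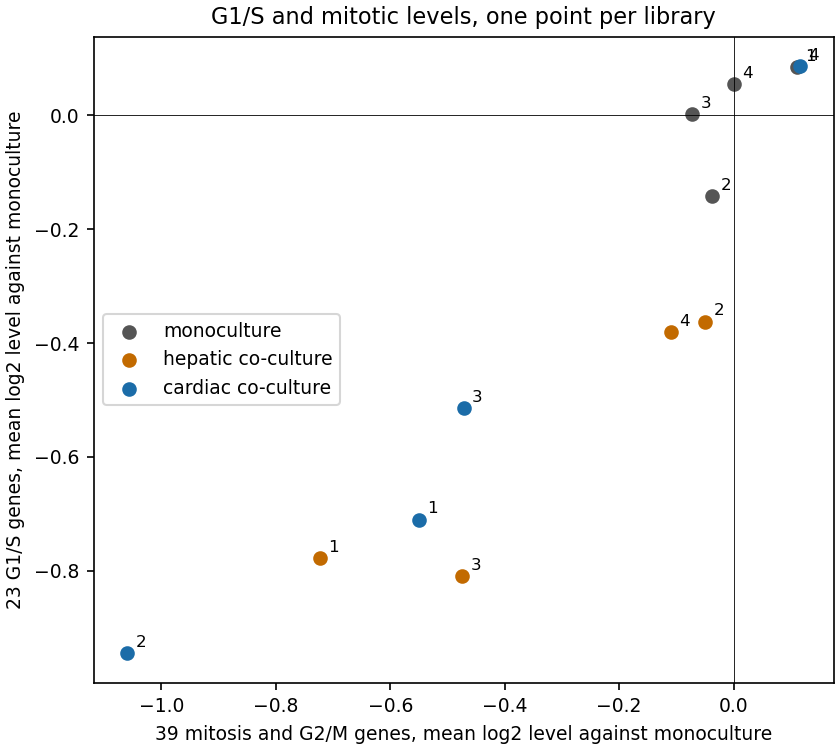
Mean log2 level against the monoculture mean of the 39 mitotic genes (horizontal axis) and of 23 G1/S and replication genes (vertical axis), 1 point per library, numbered by replicate. Hepatic replicates 2 and 4 lie near 0 on the horizontal axis but at -0.36 and -0.38 on the vertical one, and the points of monoculture replicate 1 and cardiac replicate 4 nearly coincide.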

How the data were processed

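RNA-seq of cancer tissue was read from 12 libraries, 3 groups of 4. The authors deposited read counts per Ensembl gene as whole numbers, without normalization. The build was GRCh38, and DESeq2 1.42.0, HISAT2 2.2.1 and featureCounts 2.0.6 are named, per the submitters' processing notes. What is not given in the sources used here is the annotation release, the settings, the strand mode and how reads in overlapping genes were treated, and the labels' protocols describe both a strand-specific and a non-strand-specific kit. All 58735 identifiers were found in GENCODE release 29, which gave symbols, coordinates and exon lengths.

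The test was that of edgeR 4.0.16 under R 4.3.3: filterByExpr, TMM scaling, a robust quasi-likelihood fit with group as the factor over all 12 libraries, two-sided, Benjamini-Hochberg adjustment over 17468 genes and a threshold of 0.05. The tested genes held 99.9% of the counts, and the common biological coefficient of variation was 14.9%. Log2 fold changes carry their SE and CPM values their SD. The fit was tested on simulated data. With total counts of 26.2 to 42.4 M (M for 1e6), 37 of 39 genes had at least 100 reads in every library. In most libraries the totals went with the level of these genes. Hepatic replicates 1 and 3 and cardiac replicates 1 to 3, where that level was low, held 27.0 to 32.7 M. Monoculture held 35.0 to 42.0 M, hepatic replicate 2 held 42.4 M and cardiac replicate 4 held 37.4 M. Hepatic replicate 4, near the monoculture level, held 26.2 M. The part of depth was not tested. Libraries with the same replicate number in their titles did not deviate together (12 pairs, correlations from -0.08 to 0.11, 1 above 0.1). Those with the same number in the library name did not either (8 pairs, from -0.05 to 0.09). The numbers were therefore not used to pair samples in the main fit. Whether same-numbered libraries were made together was not tested.

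The members, the lists of neighbouring genes and the tests were chosen with earlier results of these data known. All 39 may be named. Values in every library are given for 12 central genes and for those with the smallest p or largest fold change in a comparison. Beside them come 5 regulators and up to 2 called genes per neighbouring list, and of the 39 a few others for their role. One regulator is not reported here. MYH6, MYL7, ACTN2, TNNT2, TNNI3, MYH7 and ALB were chosen after their counts were seen. Alternatives were DESeq2 1.42.0, its size factors, upper-quartile scaling, no low-count filter, only the 2 groups compared, replicate blocks and each library left out.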

Additional observations from a re-analysis of the deposited data

Results flagged for a closer look

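ECT2 differed between the co-cultures in the test of that difference: the cardiac effect was -0.43 ± 0.09 on the log2 scale relative to the hepatic one (adjusted p = 0.0059, quasi-likelihood test of edgeR), and the cardiac libraries were lower in 4 of 4 than every hepatic library. The monoculture libraries enter both effects and cancel in this contrast. In 117 groups of 4 libraries (39 genes in 3 groups), 0 had a highest or lowest library whose gap to its nearest neighbour, as a share of the range, exceeded Dixon's 95% critical value.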

How the results depend on the processing

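With all libraries, 0, 2 and 1 of the 39 genes were called for hepatic against monoculture, cardiac against monoculture and cardiac against hepatic. Of the neighbouring lists, of 12 to 25 genes each, 29, 6 and 4 genes were called in either direction. Of all tested genes 28%, 8.26% and 6.18% were. The member counts, all lower, were 3, 5 and 2 with no low-count filter (7.33%, 2.98% and 2.18% of all genes in that fit were called lower), 1, 6 and 1 with DESeq2 (15.4%, 5.79% and 4.22%), and 12, 1 and 1 with only the 2 groups fitted (14.7%, 3.74% and 2.22%). The list counts were 50 (hepatic) and 21 (cardiac against monoculture) with DESeq2, where 31.2% and 13.8% of all genes were called in either direction. They were 75 (hepatic) with only the 2 groups (30.7% of all genes) and 28 (cardiac against monoculture) with no filter (6.67%). With each library left out in turn, members called ranged from 0 to 9, 1 to 28 and 1 to 2, and list genes from 12 to 72, 0 to 83 and 4 to 7. Without cardiac replicate 4, 31.2%, 19.1% and 4.79% of all tested genes were called in either direction. For most other left-out libraries that share was not counted, so the ranges are a description only. The highest member count of each range came without cardiac replicate 4, and the cause was not tested. Whether equal numbers mark libraries made together is not given in the sources used here. With the replicate block, 1, 3 and 1 members were called (12.9%, 2.93% and 2.5% of all genes were called lower). With the number in the library name as block, 11 members (12.3%) and 71 list genes were called in the hepatic comparison. In that fit 25.9% of all genes were called in either direction.

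The medians of the 39 genes stayed negative for both co-cultures against monoculture under each alternative. Directions that turned were all of genes not called. For cardiac against hepatic these were BIRC5 (-0.0064 with upper-quartile scaling, -0.021 with the replicate block) and CDC20 (-0.047 with the replicate block). With libraries left out, the log2 fold change for cardiac against hepatic ranged from -0.32 to 0.11 for AURKA, -0.21 to 0.15 for BIRC5, -0.22 to 0.14 for CCNB1, -0.33 to 0.21 for CDC20, -0.21 to 0.18 for CENPF, -0.21 to 0.30 for KIF20A, -0.017 to 0.49 for MKI67, -0.22 to 0.25 for PLK1, -0.28 to 0.16 for TOP2A and -0.39 to 0.015 for UBE2C. For hepatic against monoculture it ranged from -0.15 to 0.015 for CDK1. Of the single-gene values under the alternatives, 763 kept direction and side of the threshold, 39 passed it, 11 no longer did and 29 turned. Shares of promoters with a motif in a window of 150 bases were 61.0% (CCAAT), 56.1% (TTTGAA) and 2.44% (the E2F letters), against 21.3%, 6.84% and 0.60% of all windows.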

Other observations

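The table also holds near-identical copies of 2 of the genes, and how reads shared with them were counted is not given in the sources used here. KIF4B, an intronless copy of KIF4A, had 2 to 30 counts per library, and PTTG2, a copy of PTTG1, had 0 to 2.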
